A study of Mus musculus with 11 samples.

Results

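The effect of 1 week of 17β-estradiol on gene expression in the wild-type (WT) mouse jaw joint was taken from the 5 WT libraries of a series of 11. Every gene that passed a filter on low counts was compared between 3 WT estradiol and 2 WT placebo libraries, which gave 14531 genes of the 23420 in the count table. The tissue was mandibular condylar fibrocartilage, with all of its cells, from 7-week-old C57BL/6 females, so RNA of every cell type in the dissection was read together. Both groups had lost their ovaries at 6 weeks of age and then carried a pellet for 1 week. It held placebo or 0.01 mg of 17β-estradiol made for release over 60 days, so placebo stands for an animal without ovarian estrogen. The other 6 libraries came from mice labelled ERalphaKO (KO), treated alike, with 3 placebo and 3 estradiol samples. They entered the fit to steady the estimate of spread and are shown only beside a WT result. Whether each sample was a separate animal is not in the labels, so a p-value here reflects only how much these libraries vary, and some of that may be technical.

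Estradiol acts on cells mainly through nuclear receptors, estrogen receptors alpha and beta, which bind DNA at estrogen response elements or dock on other transcription factors and raise or lower nearby genes. The condylar fibrocartilage covers the lower jaw's side of the joint, with a fibrous surface, a layer of dividing progenitors, and maturing chondrocytes that are replaced by bone below. Estrogen is known for restraining bone resorption and for suppressing B cell formation in bone marrow, and it acts on bone growth in the young.

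In WT tissue 225 genes were called at an adjusted p under 0.05 (quasi-likelihood F test of edgeR, adjusted by Benjamini-Hochberg), 1.55% of those tested, with 95 higher (0.654%) and 130 lower (0.895%) under estradiol. Estradiol and placebo libraries did not overlap for any of the 225, but that was also so for 27% of all tested genes, 13.2% higher and 13.8% lower. Counts of genes without overlap in the gene lists below are to be read beside these shares. Of the rises 50 were at least 2-fold and 17 at least 4-fold. Of the falls 78 were at least 2-fold and 41 at least 4-fold. The median log2 change was 1.03 over the genes called higher, -1.24 over those called lower and 0.00 over all genes. The strongest rises began near zero, with 11 of 95 under a mean of 1 count per M (CPM) in placebo, and 41 of the 130 falls ended under that level in estradiol. Of the 225 genes 58 belonged to at least 1 of 54 gene lists and 167 to none. The authors' deposited table of the same comparison has 497 genes at an adjusted p under 0.05, and 213 of the 225 are among them, all with the same direction, which is 94.7% of the genes called here and 42.9% of the authors' genes.

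The libraries differed in ways the treatment labels do not describe. Totals were 19.3 and 16.5 M counts in WT placebo 1 and 2 and 21.5 to 25.5 M in WT estradiol, so that 3 counts stood for 0.118 to 0.204 CPM. Rn45s, the ribosomal RNA precursor, took 16.04% of the counts of WT placebo 2 and 1.834% to 3.126% elsewhere. Skeletal muscle genes summed to 2060 CPM in WT placebo 2, to 66.8 in WT placebo 1, and to 363, 92.0 and 63.6 in WT estradiol. In KO they summed to 760, 1070 and 135 CPM with placebo and to 30.9, 30.3 and 32.8 with estradiol. Among the WT libraries WT placebo 1 stood apart in clock genes. Dbp, a clock output gene, had 314 CPM there, 14.9 in WT placebo 2 and 4.93, 4.97 and 4.12 under estradiol. Arntl, a core clock activator, had 8.67 CPM in WT placebo 1, 55.3 in WT placebo 2 and 50.8 to 69.8 under estradiol. In KO, Dbp had 304, 301 and 49.0 CPM with placebo and 18.6, 27.1 and 15.8 with estradiol. Arntl had 7.78, 6.94 and 54.5 CPM in KO placebo and 60.6, 44.2 and 55.2 in KO estradiol. The cause of these differences was not tested. The time of day of collection is not given in the sources used here. None of 19 clock and none of 25 muscle genes was called in edgeR, with list medians of -1.10 and -2.67 on the log2 scale. At an unadjusted p under 0.05 there were 9 clock genes, all lower, and 6 muscle genes, and DESeq2 called 6 and 1. Without WT placebo 1 the clock median was -0.30, and without WT placebo 2 the muscle median was 1.13. Each placebo library was therefore left out in turn: 194 genes were called without WT placebo 1 and 280 without WT placebo 2, of which 102 and 142 were among the 225, and the lone remaining placebo sample is then assumed to vary like the other groups.

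Markers of the labelled tissue were present in every WT library. Col2a1, the main cartilage collagen, ranged from 7224 to 14720 CPM, Acan, the large cartilage proteoglycan, from 974 to 1800, and Col1a1, the collagen of fibrous tissue and bone, from 45424 to 77415. Their placebo and estradiol values overlapped, and none was called. Nor were Sox9, Ihh, Col10a1, Runx2, Sp7, Tnfsf11 and Tnfrsf11b, whose adjusted p ran from 0.648 to 0.966 in edgeR with Benjamini-Hochberg adjustment. Their log2 values ranged from -0.33 for Sox9 to 0.21 for Col10a1. Esr1, the gene of estrogen receptor alpha, had 13.4 and 6.60 CPM in placebo and 7.89, 6.76 and 6.43 in estradiol, and was not called (adjusted p = 0.498). In the KO libraries its mean was 3.84 ± 1.1 CPM (SD, n = 3) with placebo and 3.24 ± 0.62 (n = 3) with estradiol. Esr2, which encodes estrogen receptor beta, had 0 or 1 count in each WT library and was not tested, and at this depth its level could not be told from 0.

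Several genes with the largest rise were nearly silent without estradiol. Greb1, a widely used reporter of estrogen receptor activity, had 0.215 and 0.0680 CPM in placebo and 13.6, 12.5 and 10.2 CPM in estradiol. Every estradiol library was far above both placebo libraries, and the change was 78.0-fold (log2 6.28, SE 0.57, adjusted p = 0.000119 in edgeR with Benjamini-Hochberg adjustment). Asb4, a substrate-binding subunit of ubiquitin ligases, had 0.162 and 0.204 CPM in placebo and 10.5, 8.46 and 10.7 in estradiol (log2 5.73, SE 0.51). Lgi2, a secreted leucine-rich protein of neurons, had 0.538 and 0.204 CPM against 16.6, 18.6 and 12.6 (log2 5.34, SE 0.40). Sftpa1, which encodes a surfactant protein, had 1 count in both placebo libraries together and 797 in estradiol, 372 times as many for the depth (95% counting interval 66.5 to 14699). Its 1 count lay in WT placebo 1. Without WT placebo 1 the log2 change was 7.35 for Greb1 and 6.24 for Lgi2.

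The sequence before the start site is shown for genes that rose strongly, since estrogen response elements are one way the receptor finds its genes. Each line gives the 250 bases before a RefSeq start site, 5′ to 3′ along the gene, from the RefSeq promoter table of build GRCm38.p6, with the arms of the element, GGTCA or on the other strand TGACC, in capitals. Greb1 has more than 1 start site in the table, and the windows of both are given.
Greb1, first window, chr12:16800887-16801136, minus strand: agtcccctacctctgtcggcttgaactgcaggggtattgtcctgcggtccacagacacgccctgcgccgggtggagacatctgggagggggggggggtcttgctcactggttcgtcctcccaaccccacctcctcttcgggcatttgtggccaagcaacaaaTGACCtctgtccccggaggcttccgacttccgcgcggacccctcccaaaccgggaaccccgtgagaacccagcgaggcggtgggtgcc
Greb1, second window, chr12:16757240-16757489, minus strand: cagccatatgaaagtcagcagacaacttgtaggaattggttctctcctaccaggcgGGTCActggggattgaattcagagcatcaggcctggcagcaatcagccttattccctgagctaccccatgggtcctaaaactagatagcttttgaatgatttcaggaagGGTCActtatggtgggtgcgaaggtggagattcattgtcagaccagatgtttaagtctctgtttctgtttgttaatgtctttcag
Lgi2, chr5:52566307-52566556, minus strand: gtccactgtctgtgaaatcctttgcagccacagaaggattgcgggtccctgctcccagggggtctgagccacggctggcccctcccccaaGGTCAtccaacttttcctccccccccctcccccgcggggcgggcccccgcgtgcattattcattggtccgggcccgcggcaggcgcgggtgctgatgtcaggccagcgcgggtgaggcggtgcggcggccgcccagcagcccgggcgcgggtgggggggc
Myo5c, chr9:75231764-75232013, plus strand: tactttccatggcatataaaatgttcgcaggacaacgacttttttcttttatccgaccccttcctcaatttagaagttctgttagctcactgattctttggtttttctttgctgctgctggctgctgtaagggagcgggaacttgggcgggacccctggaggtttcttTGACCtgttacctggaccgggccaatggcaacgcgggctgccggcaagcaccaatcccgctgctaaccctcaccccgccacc
Trpc6, chr9:8543892-8544141, plus strand: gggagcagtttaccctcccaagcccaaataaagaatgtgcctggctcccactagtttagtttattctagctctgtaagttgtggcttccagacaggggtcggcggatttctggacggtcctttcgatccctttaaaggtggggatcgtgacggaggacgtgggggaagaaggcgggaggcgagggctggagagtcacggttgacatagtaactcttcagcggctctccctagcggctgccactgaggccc
The first Greb1 window holds 1 arm, the second 2, and the Lgi2 and Myo5c windows 1 each. The Trpc6 window holds 0.

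The whole element was searched as GGTCA and TGACC with any 3 bases between them, which reads the same on both strands and contains both arms, and a single arm as GGTCA on either strand, in windows of 300 bases from 250 before to 50 after each start. The whole element was found in 23 of 32851 mouse promoters (0.07%) and in 1 of 13680 promoters of tested genes (0.00731%). It was in none of the 94 promoters matched to 75 genes called higher or the 114 matched to 91 genes called lower. An element this rare would be missing from most sets of that size, so its absence cannot tell these genes from others. A single arm was in 40.5% of all promoters, 37.9% of those of tested genes, 43.6% of those of genes called higher and 42.1% of those of genes called lower. Among the genes named for the largest rise it was in 7 of 13 promoters (53.8%), and among those named for the largest fall in 3 of 13 (23.1%). A match is a description of the letters in these windows and not a binding site.

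Channels and membrane proteins were among the firmest rises. Trpc6, a calcium-permeable cation channel opened by diacylglycerol, had 3.66 and 4.29 CPM in placebo and 62.5, 65.2 and 60.6 CPM in estradiol. The estradiol libraries lay within a few CPM of each other and far above placebo, a 15.8-fold rise (log2 3.98, SE 0.21, adjusted p = 9.87e-07 in edgeR with Benjamini-Hochberg adjustment). Trpc6 was the 1 called gene of 16 tested TRP and PIEZO channels, whose median log2 change was 0.11. Kcnk2 (TREK-1), a potassium leak channel that opens on stretch, rose from 23.9 and 20.2 CPM to 52.1, 45.4 and 48.8 (log2 1.14, SE 0.14). Its relative Kcnk1 rose from 40.4 and 38.7 CPM to 78.3, 72.6 and 93.6 (log2 1.04, SE 0.15). They were the called members of 28 potassium, calcium and sodium channel genes, whose median was -0.07, and 13 of the 28 had a positive value. A pair of other channel genes outside that list fell, and these were chosen after their values were seen. Asic3, an acid-sensing channel of sensory neurons, went from 9.64 and 8.91 CPM to 2.29, 3.59 and 3.05 (log2 -1.64, SE 0.21), and the calcium channel subunit Cacna2d3 from 6.46 and 5.72 CPM to 2.17, 2.39 and 2.76 (log2 -1.32, SE 0.19).

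Several rising and falling genes are best known from neurons. Shank2, a scaffold of the postsynaptic density, rose from 0.808 and 0.136 CPM to 9.75, 10.5 and 7.83 (log2 4.22, SE 0.47), while its relative Shank1 fell from 30.1 and 21.2 CPM to 13.4, 16.6 and 9.07 (log2 -0.99, SE 0.21). With Lgi2 higher and the synaptic adhesion gene Nlgn2 lower (log2 -0.43, SE 0.09), 4 of 24 synapse and neurite genes were called, 2 in each direction, and the list median was -0.29. St8sia2, which builds polysialic acid on cell adhesion molecules, went from 4.68 and 4.49 CPM to 0.197, 0.184 and 0 (log2 -5.12, SE 0.45, adjusted p = 0.000109 in edgeR with Benjamini-Hochberg adjustment). It was all but lost in each estradiol library. Chl1, a neural cell adhesion molecule, had 5.33 and 3.54 CPM in placebo and 0.0789, 0.322 and 0.165 in estradiol (log2 -4.56, SE 0.42). None of 12 Schwann cell and nerve markers was called in edgeR or DESeq2, with 2 at an unadjusted p under 0.05 and a list median of -0.20. Myo5c, an unconventional myosin of epithelial secretory cells, rose from 0.646 and 0.204 CPM to 8.49, 8.46 and 6.18 (log2 4.11, SE 0.57), the 1 called gene of 18 unconventional myosins. Shank1 and Nlgn2 lost their calls in 11 and 12 of 20 alternatives, with adjusted p up to 0.210 and 0.193 without WT placebo 1. Without that library the log2 change was 6.04 for Shank2 and 5.19 for Myo5c, and it was 3.53 for Shank2 without WT placebo 2.

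**Figure D1:**
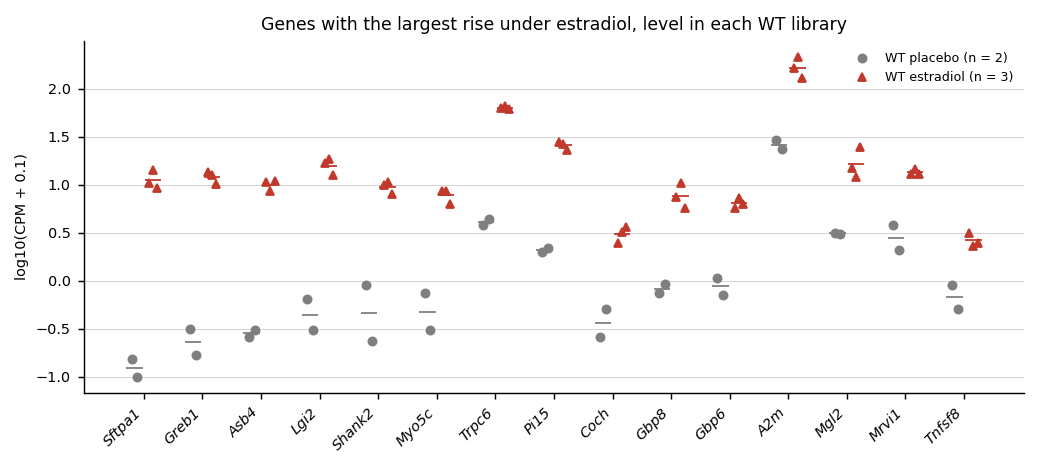
Level of the 15 genes with the largest rise, as log10(CPM + 0.1), in each WT library (grey circles placebo, n = 2; red triangles estradiol, n = 3; lines are group means on the plotted scale). For every gene the estradiol libraries sit above both placebo libraries (Greb1 10.2 to 13.6 CPM against 0.0680 and 0.215).

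A few matrix genes changed. Thbs1, thrombospondin 1, a matrix glycoprotein that activates latent TGF-beta and limits vessel growth, had 128 and 122 CPM in placebo and 484, 469 and 425 in estradiol. The groups were well apart, a 3.66-fold rise (log2 1.87, SE 0.10, adjusted p = 9.87e-07 in edgeR with Benjamini-Hochberg adjustment). Col8a1, a short-chain collagen, had 111 CPM in both placebo libraries and 271, 349 and 250 in estradiol (log2 1.38, SE 0.13). Fbn2, a microfibril protein of growing tissue, went from 9.58 and 8.44 CPM to 22, 21.6 and 15.2 (log2 1.12, SE 0.17). These were the 3 called of 32 fibrous matrix genes, whose median was -0.08, with 4 genes higher and 8 lower without overlap between groups. Of all tested genes 13.2% were higher and 13.8% lower without overlap. Lox, which starts the crosslinking of collagen and elastin, rose from 447 and 527 CPM to 875, 878 and 821 (log2 0.82, SE 0.12), the 1 called of 25 collagen processing genes, of which 20 had a positive value. Without WT placebo 1 the adjusted p of Lox was 0.0503.

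Among the falls, Lum, a small proteoglycan that orders collagen fibrils, went from 2439 and 2733 CPM to 1683, 1817 and 1976 (log2 -0.50, SE 0.11). Its relative Podnl1 fell too (log2 -0.63, SE 0.12), and these were the 2 called of 16 small leucine-rich proteoglycans. Matn4, an adaptor of cartilage matrix, fell from 28.7 and 17.8 CPM to 10.3, 8.42 and 9.15 (log2 -1.33, SE 0.18) and was the 1 called of 26 cartilage genes, 17 of which had a positive value. The positive members numbered 23 without WT placebo 1 (list median 0.35) and 5 without WT placebo 2 (-0.27). Lum lost its call in 8 of 20 alternatives, 7 of them fits without 1 library, with an adjusted p of up to 0.158 without WT placebo 2. Podnl1 lost it without WT placebo 1 (adjusted p = 0.128), WT estradiol 1 or WT estradiol 2, and in the 5 WT samples alone. None of 34 matrix proteases was called in edgeR, while 9 had an unadjusted p under 0.05 and DESeq2 called 3. Mmp2, which degrades basement membrane and denatured collagen, came nearest, at 2510 and 2626 CPM against 1998, 1983 and 1720 (adjusted p = 0.0527 in edgeR with Benjamini-Hochberg adjustment).

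Genes of the protease inhibitor list moved both ways, with 2 of 24 called in each direction and a list median of -0.21. A2m, a secreted inhibitor that traps many proteases, had 28.9 and 23.3 CPM in placebo and 165, 215 and 129 in estradiol, a 6.49-fold rise (log2 2.70, SE 0.22). In KO its level was 2.85 ± 0.43 CPM with placebo (SD, n = 3) and 2.41 ± 0.53 with estradiol (n = 3). Pi15, a secreted protein that inhibits trypsin, rose from 1.88 and 2.11 CPM to 28.0, 26.2 and 23.0 (log2 3.69, SE 0.35). Serpinf1, on the list but known as an inhibitor of vessel growth, fell from 2720 and 2493 CPM to 1644, 1669 and 1969 (log2 -0.57, SE 0.11). Timp2, an inhibitor of matrix metalloproteases, fell by 0.46 on the log2 scale (SE 0.10). Serpinf1 lost its call in 6 and Timp2 in 9 of 20 alternatives, with adjusted p up to 0.128 without WT placebo 1 and 0.136 in a fit of the 5 WT samples alone.

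Secreted growth and niche signals were lower under estradiol at several called genes. Cxcl12, a chemokine that holds blood cell precursors in the marrow niche, had 235 and 216 CPM in placebo and 54.7, 56.2 and 42.8 in estradiol. No library overlapped, and the fall was 4.40-fold (log2 -2.14, SE 0.24, adjusted p = 0.00139 in edgeR with Benjamini-Hochberg adjustment). Igf1, a growth factor made locally under growth hormone, had 145 and 154 CPM against 55.3, 83.5 and 50.1 (log2 -1.25, SE 0.19), the 1 called of 25 genes of the growth hormone and IGF axis. The heparin-binding growth factors midkine and pleiotrophin were both lower. Mdk, picked with its values in view, went from 32.2 and 34.8 CPM to 12.0, 14.6 and 16.5 (log2 -1.22, SE 0.15), and Ptn, a tendon and fibrous layer gene here, from 238 and 274 CPM to 173, 155 and 186 (log2 -0.58, SE 0.11). Fstl1, a secreted glycoprotein that can bind BMPs, fell from 483 and 468 CPM to 325, 289 and 322 (log2 -0.61, SE 0.08) as the 1 called of 33 BMP and TGF-beta ligands and inhibitors. Secreted genes that rose, also chosen after their values were seen, were the neuropeptide gene Gal (3.23 and 4.83 to 12.3, 12.5 and 14.1 CPM) and the angiotensin precursor gene Agt (13.7 and 14.9 to 27.2, 30.4 and 30.6 CPM). The call of Ptn ended without WT placebo 2 (adjusted p = 0.0911), WT estradiol 1 or WT estradiol 2, and in the 5 WT samples alone.

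Wnt genes moved in both directions. Wnt4, a ligand of joint, kidney and reproductive tract development, had 40.2 and 39.8 CPM in placebo and 94.1, 82.5 and 92.6 in estradiol (log2 1.17, SE 0.10, adjusted p = 7.88e-05 in edgeR with Benjamini-Hochberg adjustment). Wnt10a, a ligand best known from tooth development, fell from 1.78 and 1.22 CPM to 0.158, 0.322 and 0.330 (log2 -2.47, SE 0.45), and Wnt16, a ligand that restrains bone resorption, from 3.5 and 2.45 CPM to 0.671, 1.01 and 0.783 (log2 -1.86, SE 0.40). Wnt4 was thus well above its placebo level in every estradiol library while the other called ligands were below theirs. These were the 3 called of 30 Wnt ligands, receptors and targets, whose median was -0.36, with 15 lower and 2 higher without overlap. Of 12 secreted antagonists Sost, the osteocyte product sclerostin, rose from 37.9 and 43.5 CPM to 81.3, 108 and 115 (log2 1.32, SE 0.15), and Wif1, which binds Wnt ligands, fell from 673 and 621 CPM to 407, 400 and 461 (log2 -0.62, SE 0.12). Wnt10a lost its call in 4 and Wnt16 in 10 of 20 alternatives, for both genes also without WT placebo 1 and without WT estradiol 1. In limma-voom and in the 5 WT samples alone, 0 of the 30 genes were called lower. Wif1 lost its call without WT placebo 1, WT estradiol 1 (adjusted p = 0.102) or WT estradiol 2, and in the 5 WT samples alone.

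**Figure D2:**
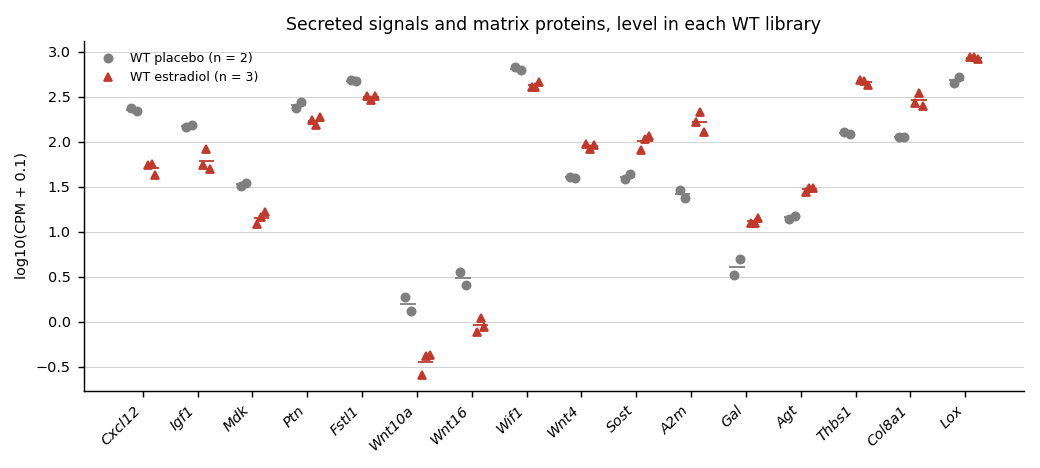
Level of 16 secreted signal and matrix genes, as log10(CPM + 0.1), in each WT library (grey circles placebo, n = 2; red triangles estradiol, n = 3; lines are group means on the plotted scale). The 8 genes from Cxcl12 to Wif1 are lower and the 8 from Wnt4 to Lox higher in every estradiol library (Cxcl12 42.8 to 56.2 CPM against 216 and 235).

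Some genes of mesenchymal fate and of contractile cells also fell. Ebf3, a transcription factor of marrow stromal cells that make Cxcl12, had 14.4 and 11.6 CPM in placebo and 3.95, 5.79 and 4.53 in estradiol (log2 -1.45, SE 0.20). With Cxcl12 it was 1 of 2 genes called lower among 21 stromal niche genes (list median -0.20). Pparg, the main regulator of fat cell formation, fell from 4.41 and 3.40 CPM to 1.46, 1.66 and 1.15 (log2 -1.46, SE 0.30), the 1 called of 20 adipocyte genes. Of 16 pericyte and smooth muscle genes 3 fell, namely Myl9 (log2 -1.15, SE 0.24), Notch3 (log2 -0.83, SE 0.18) and Mylk (log2 -0.72, SE 0.12). The cytoskeletal gene Limch1, which activates non-muscle myosin, fell from 155 and 92.9 CPM to 24.5, 23.5 and 22.8 (log2 -2.39, SE 0.19, adjusted p = 7.88e-05 in edgeR with Benjamini-Hochberg adjustment). It was picked after its values were seen. Pparg, Myl9 and Notch3 lost their calls in 7, 9 and 10 of 20 alternatives, with adjusted p up to 0.143 and 0.199 without WT placebo 1 for Pparg and Notch3 and 0.199 without WT placebo 2 for Myl9. Mylk lost it in the 5 WT samples alone (adjusted p = 0.0516). All RNA of the tissue was read together, so fewer cells of a type and less RNA per cell cannot be told apart here or in the results that follow.

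The osteoclast genes Acp5 and Ocstamp and the bone gene Ibsp rose by less than 2-fold. Acp5, the tartrate-resistant acid phosphatase of osteoclasts, had 3844 and 3187 CPM in placebo and 5234, 5031 and 5850 in estradiol (log2 0.61, SE 0.12, adjusted p = 0.0224 in edgeR with Benjamini-Hochberg adjustment). With Ocstamp, a gene of osteoclast fusion (log2 0.59, SE 0.13), it was called among 24 osteoclast genes, of which 22 had a positive value and 11 were higher without overlap, 0 lower (list median 0.22). Without WT placebo 2 none of the 24 was called, 16 were positive and the median was 0.06, while without WT placebo 1 there were 6 called and the median was 0.37. Tnfrsf11a, the receptor for the osteoclast-forming ligand RANKL, had 32.6 and 22.8 CPM against 40.9, 40.2 and 37.7 but was not called (adjusted p = 0.108). Ibsp, a mineral-binding protein of osteoblasts and hypertrophic cartilage, rose from 4060 and 3429 CPM to 6134, 5998 and 5842 (log2 0.68, SE 0.14). With Sost it was called among 24 osteoblast and osteocyte genes, whose median was -0.04. Lifr, the receptor of leukemia inhibitory factor, had 336 and 301 CPM in placebo and 598, 652 and 507 in estradiol (log2 0.88, SE 0.14). Ssr3, a subunit of the translocon complex of the endoplasmic reticulum, rose (log2 0.53, SE 0.09). Acp5 lost its call in 3, Ibsp in 7 and Ocstamp in 11 of 20 alternatives. For each of these genes they included the fit without WT placebo 2 and the 5 WT samples alone. Ssr3 lost its call without WT placebo 1 and in the 5 WT samples alone (adjusted p = 0.0746). None of 30 secretory pathway genes was called in edgeR, though 26 had a positive value and 6 an unadjusted p under 0.05, all higher, and DESeq2 called 3 (list median 0.25).

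Some macrophage and antigen presentation genes rose. Siglec1, an adhesion receptor of tissue macrophages, rose from 13.1 and 7.82 CPM to 32.7, 26.1 and 26.2 (log2 1.43, SE 0.21), and Mgl2, a lectin of macrophages and dendritic cells, from 3.01 and 2.99 CPM to 15, 12.0 and 24.7 (log2 2.52, SE 0.36). Siglec1 was the 1 called of 24 macrophage genes, of which 14 were higher and 2 lower without overlap (list median 0.35). The myeloid receptor genes Cx3cr1 (30.1 and 26.7 to 54.3, 46.7 and 53.3 CPM) and Fcrls (9.58 and 11.1 to 29.2, 24.5 and 38.1 CPM) rose as well and were chosen after their values were seen. B2m, the shared light chain of MHC class I, rose from 655 and 707 CPM to 928, 942 and 1141 (log2 0.56, SE 0.11). The class I heavy chains H2-K1 (log2 0.68, SE 0.10), H2-D1 (log2 0.56, SE 0.10) and H2-Q4 (log2 0.77, SE 0.17), also chosen after their values were seen, rose by similar amounts. Heavy chain genes are near copies of each other and the counting method is not given, so reads may be split between them. Without WT placebo 1 the calls of B2m, H2-D1 and Fcrls ended (Fcrls adjusted p = 0.0593, H2-D1 0.0813), those of B2m (adjusted p = 0.119) and H2-D1 also in the 5 WT samples alone, and H2-Q4 lost its call in 10 of 20 alternatives.

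The guanylate-binding protein genes Gbp6 (0.969 and 0.612 to 5.64, 7.17 and 6.22 CPM) and Gbp8 (0.646 and 0.817 to 7.30, 10.3 and 5.61 CPM), which serve interferon-driven defence, rose by 2.98 and 3.40 on the log2 scale. These too belong to a family of near copies. Bst2 (tetherin), which holds budding viruses on the cell surface, rose from 17.8 and 19.3 CPM to 41.2, 44.8 and 48.3 (log2 1.28, SE 0.10) and was the 1 called of 30 interferon-stimulated genes, of which 22 had a positive value (list median 0.13, and -0.06 to 0.51 over the alternatives). None of 15 MHC class II genes was called in edgeR, 4 had an unadjusted p under 0.05 and DESeq2 called 1 (list median 0.04). Emcn, a sialomucin of capillary and venous endothelium, rose (log2 0.46, SE 0.10) as the 1 called of 25 endothelial genes. Emcn lost its call in 10 of 20 alternatives, and Gbp6 without WT placebo 1 or WT placebo 2 (adjusted p up to 0.0686).

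Many of the largest falls were in B cell, basophil and blood precursor genes. Of 25 B lineage genes 10 were called lower and none higher, 21 were lower without overlap, and the list median was -3.05 on the log2 scale. Rag1, which cuts antigen receptor genes in B and T cell precursors, had 5.76 and 4.01 CPM in placebo and 0.0395, 0.184 and 0 in estradiol (log2 -6.02, SE 0.94, adjusted p = 0.0173 in edgeR with Benjamini-Hochberg adjustment). Vpreb3, an early B cell chaperone, went from 6.19 and 4.42 CPM to 0.0789, 0.322 and 0.124 (log2 -4.93, SE 0.58). Both were well expressed in each placebo library and close to the counting floor in each estradiol library. Spib and Pou2af1, regulators of B cell genes, fell by 4.72 and 4.15 on the log2 scale, and Cd79a, part of the B cell receptor, fell by 3.94. Pax5, a transcription factor that commits cells to the B lineage, fell by less (log2 -2.64, SE 0.57). It was picked with its values in view. Summed B lineage CPM was 334 and 294 in placebo and 192, 188 and 209 in estradiol. Without Sdc1, the largest member, which other cells also make, it was 148 and 140 against 38.3, 42.1 and 42.0. The number of B lineage genes called depended on the fit, with 2 without WT placebo 1, 5 without WT placebo 2, 0 in limma-voom and 18 in DESeq2, whereas the list median stayed between -3.24 and -2.65. Of the 19 alternatives that tested these genes, Rag1 and Pou2af1 lost their calls in 4, Spib and Cd79a in 6 and Pax5 in 9. Vpreb3 lost its call in limma-voom alone (adjusted p = 0.169).

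Some early blood and lymphoid genes also fell. Myb, a regulator of blood precursors, had 12.0 and 11.7 CPM in placebo and 0.395, 0.598 and 0.247 in estradiol (log2 -4.84, SE 0.45, adjusted p = 0.000543 in edgeR with Benjamini-Hochberg adjustment). Il7r, the receptor for the lymphoid growth factor interleukin 7, fell from 5.06 and 2.04 CPM to 0.118, 0.644 and 0.536 (log2 -3.07, SE 0.58), whereas its ligand Il7 had 1.94 and 2.52 CPM against 0.987, 1.01 and 1.24 and was not called (adjusted p = 0.167). Myb lost its call in limma-voom alone (adjusted p = 0.0878). Il7r lost it in 7 of the 19 alternatives that tested it, with a log2 change of -2.26 without WT placebo 1. Their lists as a whole moved less. Myb was the 1 called of 19 blood progenitor genes, of which 7 had a positive value, 5 were higher and 7 lower without overlap (list median -0.16). Il7r was the 1 called of 9 T and NK cell genes, of which 5 were positive (list median 0.15). The basophil protease genes Prss34 and Mcpt8 had 103 and 46 counts in placebo and 0 counts in all estradiol libraries. Against a floor of 3 counts per library they were at least 25.6-fold and 11.2-fold lower. These were the 2 called of 19 basophil, mast cell and eosinophil genes, and 4 of the 19 had a group with 0 counts (list median -2.86 as fitted and -2.50 with those genes at their bound).

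Neutrophil genes were lower without passing the test in the fit of all 11 libraries. Mpo, which makes hypochlorous acid, had 33.5 and 103 CPM in placebo and 1.62, 0 and 0.371 in estradiol, and Elane, neutrophil elastase, 12.4 and 29.1 CPM against 0.513, 0 and 0.124. The groups did not overlap, yet neither passed (adjusted p = 0.147 and 0.131 in edgeR with Benjamini-Hochberg adjustment). Both were chosen after their values were seen. None of 23 neutrophil genes was called in edgeR in that fit, 12 had an unadjusted p under 0.05 and DESeq2 called 9, all lower. In the 5 WT samples alone edgeR called 8 of 22 neutrophil genes, all lower. Of the 23, 21 were lower without overlap, and the list median was -3.67. Summed CPM was 3810 and 3530 in placebo and 4050, 3880 and 3350 in estradiol, because Mmp9, which osteoclasts also make, took most of it, and without Mmp9 it was 248 and 549 against 11.4, 50.8 and 13.4. Megakaryocyte genes had 0 of 18 called in edgeR (5 at an unadjusted p under 0.05, 1 in DESeq2), 12 lower without overlap and a list median of -2.51, or -1.29 with 3 genes at their bound. None of 13 erythroid genes was called in edgeR or DESeq2 or had an unadjusted p under 0.05, and 4 were positive (list median -0.34). Their summed CPM was higher under estradiol, 563 and 516 in placebo and 772, 676 and 779 in estradiol. The marrow content of each dissection was not measured apart from these genes, and its part in the falls was not tested.

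**Figure D3:**
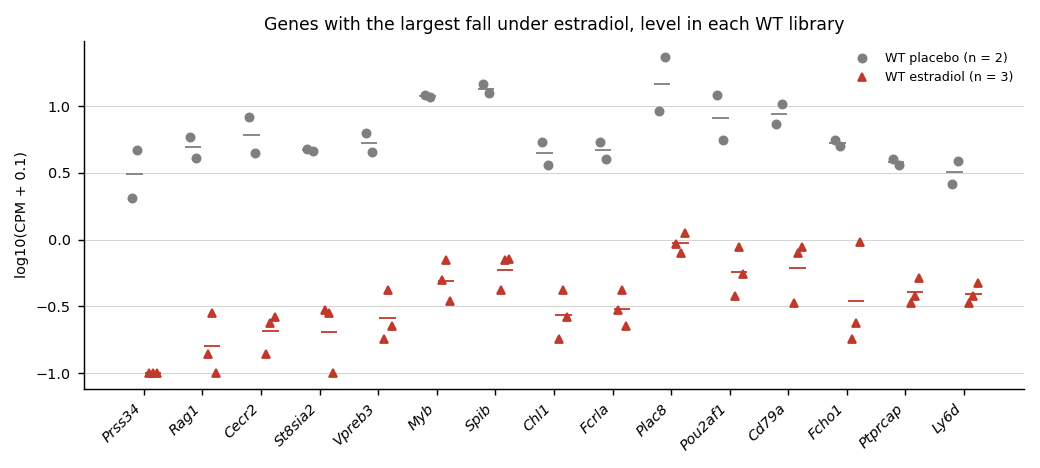
Level of the 15 genes with the largest fall, as log10(CPM + 0.1), in each WT library (grey circles placebo, n = 2; red triangles estradiol, n = 3; lines are group means on the plotted scale). No estradiol library reaches a placebo library for any gene, and the lowest points, at -1, are libraries with 0 counts (all 3 for Prss34).

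Cell division genes stood mostly above placebo. All 32 mitosis genes had a positive value and 26 were higher without overlap, and all 32 had an unadjusted p under 0.05. Of these 32 only Hmmr, a spindle and hyaluronan-binding protein, was called in edgeR, at 10.6 and 13.2 CPM in placebo and 32.8, 24.7 and 20.7 in estradiol (log2 1.14, SE 0.22, adjusted p = 0.0294 in edgeR with Benjamini-Hochberg adjustment). Kif20b, Cdca2 and Troap, cell division genes outside the list, were also called higher. The count of called mitosis genes was 0 without WT placebo 1, 6 without WT placebo 2, 0 in limma-voom and 9 in DESeq2. The list median was 0.67, with 0.419 and 1.01 in those fits without a placebo library, and the summed CPM 535 and 775 against 1250, 1000 and 881. Ect2 and Kif4, which act in the last step of division, had adjusted p values of 0.0627 and 0.0564 and were chosen after their values were seen. Mki67, a marker of cycling cells, had 52.4 and 71.6 CPM against 111, 97.7 and 63.6, with overlap (adjusted p = 0.290). DNA replication genes differed in sign among themselves, with 15 of 34 positive, 0 called in edgeR or DESeq2, 1 at an unadjusted p under 0.05 and a median of -0.06. Cyclin genes of the first growth phase fell, Ccnd2 from 302 and 221 CPM to 147, 158 and 139 (log2 -0.82, SE 0.17) and Ccnd3 from 119 and 116 CPM to 82.5, 74.2 and 94.2 (log2 -0.49, SE 0.11), both chosen after their values were seen. Hmmr and Ccnd2 each lost the call in 6 and Ccnd3 in 10 of 20 alternatives. For Hmmr and Ccnd2 these included limma-voom and the fits without WT placebo 1, WT estradiol 1 or WT estradiol 2. In KO the mitosis list had a median of 1.28, and Hmmr rose there as well (log2 1.40, adjusted p = 0.00532).

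**Figure D4:**
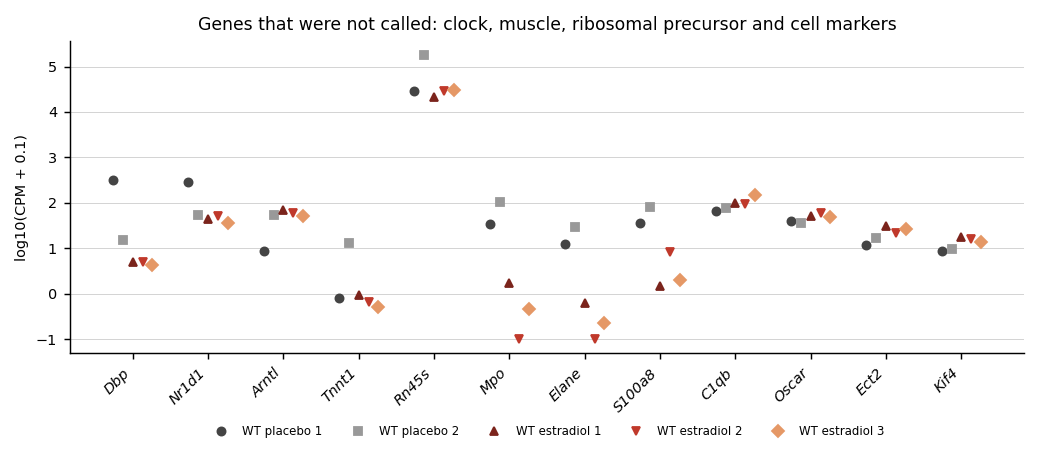
Level of 12 genes that were not called, some of them chosen after their values were seen, as log10(CPM + 0.1), in each of the 5 WT libraries (circle and square placebo 1 and 2; triangles and diamond estradiol 1 to 3). WT placebo 1 stands apart for the clock genes Dbp, Nr1d1 and Arntl, WT placebo 2 for the muscle gene Tnnt1 and for Rn45s (179747 CPM), and the neutrophil genes Mpo, Elane and S100a8 are lower in every estradiol library.

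The cholesterol synthesis, oxidative phosphorylation and ribosomal protein lists held no called gene in edgeR or DESeq2. All 22 cholesterol synthesis genes had a positive value, with 5 higher without overlap, 4 at an unadjusted p under 0.05 and a median of 0.30 in WT and 0.48 in KO. Of 39 oxidative phosphorylation genes 34 were positive (median 0.06), and of 43 cytosolic ribosomal protein genes 41 (median 0.13), with 1 gene of each list at an unadjusted p under 0.05. Of the 39, only 9 were positive without WT placebo 1 (median -0.08), against 38 without WT placebo 2 (median 0.21). None of 15 steroid and prostaglandin metabolism genes was called in edgeR, with 1 lower in DESeq2 and 1 at an unadjusted p under 0.05. None of 20 steroid receptor and coregulator genes was called in edgeR or DESeq2, with 4 at an unadjusted p under 0.05. Of 24 estrogen-responsive genes known from other tissues 4 were called, Greb1 and Wnt4 higher and Igf1 and Cxcl12 lower. Pgr, the progesterone receptor gene and a common estrogen target, had 3 counts in placebo and 40 in estradiol. That was 6.22 times as many for the depth (95% counting interval 1.98 to 31.4). Pgr was not called (adjusted p = 0.308 in edgeR with Benjamini-Hochberg adjustment). Its fitted WT effect minus its KO effect was -0.166 on the log2 scale, and that difference was not called (adjusted p = 0.901 in edgeR). Cish, a feedback inhibitor of cytokine signals on the same list, had 4.04 and 4.69 CPM against 1.89, 2.21 and 2.14 and missed the threshold (adjusted p = 0.0527). It was picked with its values in view.

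The WT effect was then set beside the effect in KO mice, which share the fit but no library with it. In KO 396 genes (2.73%) were called without pairing, 343 higher (2.36%) and 53 lower (0.365%). A fit with the replicate number as a block, which treats same-numbered samples as pairs, called 629, 542 higher and 87 lower. Of the 95 genes that rose in WT 4 rose in KO and 0 fell. These 4 were Hmmr, Kif20b, Cdca2 and Troap, all genes of cell division, named because they are few. Of the 130 that fell in WT 6 fell in KO, Wnt10a among them, and 12 rose, among them Prss34, Mcpt8, Myb, Il7r and Ccnd3. With the block 7 of the 130 fell in KO and 21 rose. The median KO log2 change was 0.02 over the genes that rose in WT and -0.15 over those that fell.

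The difference between the effects was tested as an interaction, which was called for 167 genes (1.15%), 45 with the WT effect higher (0.31%) and 122 with it lower (0.84%). With the replicate block 301 were called, 55 higher and 246 lower, and 158 were called in both fits. The 225 genes were chosen on the WT effect, so their counts below describe them and are not an independent test. When 1 library was left out at a time, the number of interactions called ranged from 68 without WT estradiol 1 to 270 without KO estradiol 1. Among the 225 the interaction was called for 40 of the 95 genes that rose and 54 of the 130 that fell, and for 73 genes not called in WT. Trpc6 had 2.80 ± 0.16 CPM in KO placebo (SD, n = 3) and 2.35 ± 0.78 in KO estradiol (n = 3), and its effects differed by 4.22 (SE 0.27, adjusted p = 3.06e-05 in edgeR with Benjamini-Hochberg adjustment). Thbs1 had 142 ± 7.7 and 170 ± 8.7 CPM, with effects that differed by 1.61 (SE 0.12, adjusted p = 8.44e-05). Wnt4 had 36.5 ± 3.2 and 31.1 ± 1.3 CPM in KO, a difference between effects of 1.40 (SE 0.13, adjusted p = 0.000477). St8sia2 had 5.51 ± 0.69 and 4.69 ± 0.43 CPM in KO, against its near loss in WT (interaction log2 -4.89, SE 0.55).

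For Acp5, Lox, H2-K1 and B2m the interaction was not called (adjusted p = 0.0537, 0.0943, 0.133 and 0.268 in edgeR with Benjamini-Hochberg adjustment), which does not show that the effects were equal. With the replicate block that of Acp5 was called (adjusted p = 0.0424). Cxcl12 had 212 ± 36 CPM in KO placebo and 325 ± 100 in KO estradiol, and the difference between effects was -2.75 (SE 0.32, adjusted p = 0.00243). The B lineage and neutrophil lists had medians of opposite sign, 0.92 and 3.10 in KO beside -3.05 and -3.67 in WT. The interaction was called for 10 of 25 B lineage and 3 of 23 neutrophil genes, against 1.15% of all genes. KO libraries varied widely. Mpo had 0.169, 45.7 and 8.75 CPM in KO placebo and 62.2, 181 and 87.3 in KO estradiol. Neither Mpo nor Elane was called in KO (adjusted p = 0.351 and 0.233 in edgeR). Vpreb3 had 11.2 ± 3.3 CPM in KO placebo and 26.6 ± 10 in KO estradiol, above the 6.19 and 4.42 CPM of WT placebo. Its KO effect was not called in edgeR without pairing (adjusted p = 0.0782) and was called with the replicate block (adjusted p = 0.00714).

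**Figure D5:**
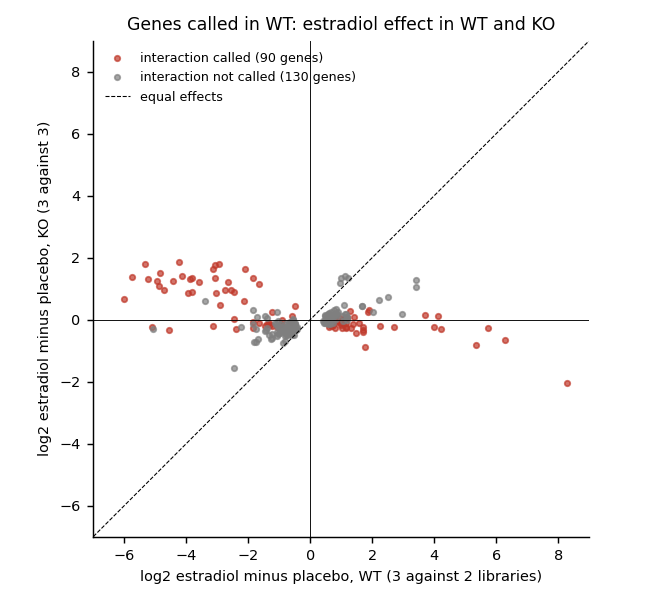
Estradiol effect in WT (x, log2, 3 against 2 libraries) and in KO (y, log2, 3 against 3 libraries) for 220 of the 225 genes called in WT, leaving out 5 with 0 counts in a WT group. Red points are the 90 genes with the interaction called, grey the other 130, and the dashed line marks equal effects. Most rises lie near 0 in KO, while the falls under -2 in WT are mostly above 0 in KO.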

How the data were processed

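Poly-A RNA was sequenced in 11 samples of mandibular condylar fibrocartilage. The authors deposited whole-number read counts per gene symbol, made with bcl2fastq 2.17 and TopHat on build mm9, per the submitters' processing notes. How reads were assigned to genes, and whether by strand, is not given in the sources used here, so overlapping, antisense and near-identical genes are uncertain. Tables of pairwise comparisons, also deposited, give log2 fold changes, their standard errors and adjusted p-values, per the file headers. Only the WT table's number and direction of genes was used.

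Counts were analysed in R 4.3.3 with edgeR 4.0.16. filterByExpr (minimum count 10, total 15) kept 14531 genes with 99.98% of counts, and TMM set the library sizes. A quasi-likelihood model of the 4 groups was fitted to all 11 samples (7 residual degrees of freedom, common biological variation 15.8%). Adjusted p-values were taken over all genes tested, and genes were called under 0.05. SE is the log2 change divided by the square root of F. CPM values are TMM-scaled. A fold against a group with 0 counts is a bound against 3 counts per library, and intervals cover counting error only, since reads carry no molecular identifiers. On simulated data with this design, 69% of 100 genes changed 2-fold and 96% of 100 changed 4-fold were called over 14392 genes, with 16 false among 181 calls. The changed genes had a mean of at least 1 CPM, so these shares do not cover genes below it. Noise was drawn for each gene independently around a mean otherwise shared by all groups. Differences across a whole library, as between the WT placebo libraries, were therefore not simulated.

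Named genes were, among called genes with a mean of at least 1 CPM and no overlap, the 15 largest rises and falls (predicted genes, antigen receptor segments and small RNAs left out), the 6 most abundant in each direction, up to 4 called members per list, the uncalled member with the smallest p of a list without calls, and fixed receptor and cartilage genes. Some genes that this rule picks are not reported here. The members, lists and rule were chosen with earlier results of these data known. Alternatives were median-ratio scaling, DESeq2 1.42.0, limma-voom (limma 3.58.1), other filters, the 5 WT samples alone, a replicate block, Rn45s left out, and each library left out in turn. Another, which left out muscle, blood and Rn45s genes before scaling, was added after seeing the data. Where leaving out a library left 1 placebo sample, that sample is assumed to vary like the other groups. Same-numbered placebo and estradiol libraries had deviations from their group means that correlated at 0.29, 0.386 and 0.142 in KO. The values were -0.203 and -0.159 in WT, where 2 placebo libraries give mirrored deviations that say little. Deviations within a group cancel out, so these correlations cannot settle whether the numbers pair samples. KO effects, interactions and their p-values come from the fit without pairing, except where the replicate block is named. No label says what a number shares. No columns of per-sample values were left unmapped. Libraries of 1 group differed by more than sampling noise, with a chi-square per degree of freedom of 194.5 between the WT placebo libraries and 10.31 to 40.27 between other pairs of a group. No batch is given in the labels.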

Additional observations from a re-analysis of the deposited data

Results flagged for a closer look

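For the genes below, the estradiol effect in WT differed from that in KO in a test of the difference itself (edgeR's interaction term, adjusted p under 0.05 with Benjamini-Hochberg adjustment over all genes). Values are the WT effect minus the KO effect on the log2 scale. Of the genes named here 55 passed, against 1.15% of all genes tested, but most were named for their WT effect, which enters the difference.

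Among genes that rose in WT, the difference was 10.3 for Sftpa1, 6.95 for Greb1, 6.16 for Lgi2 and 5.98 for Asb4. The values of Sftpa1, Greb1 and Asb4 depend on the prior count, because their WT placebo and KO groups are at or near 0 counts, and are no bounds. Of membrane and scaffold genes it was 4.53 for Shank2, 4.22 for Trpc6, 4.0 for Myo5c, 1.41 for Kcnk2 and 1.13 for Kcnk1. For secreted and matrix genes it was 3.54 for Pi15, 2.92 for A2m, 2.02 for Gal, 1.61 for Thbs1, 1.58 for Sost, 1.51 for Col8a1, 1.40 for Wnt4, 1.08 for Fbn2 and 1.05 for Agt. For other genes that rose it was 1.93 for Fam78b, 1.69 for Fcrls, 1.33 for Siglec1, 1.17 for Shox2, 1.11 for Tiparp, 0.98 for Bst2 and 0.94 for Lifr. Shox2 is a homeobox transcription factor of skeletal growth and Tiparp an ADP-ribosyltransferase, and with Fam78b they were chosen after their values were seen.

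Among genes that fell in WT, basophil and myeloid genes had fitted differences of -15.1 for Prss34, -13.4 for Mcpt8 and -10.4 for Ms4a3, which depend on the prior count because a WT or KO group is at or near 0 counts, and are no bounds. Ms4a3 was not called in WT. Lymphoid and blood precursor genes had differences of -7.13 for Cecr2, -6.68 for Rag1, -6.35 for Myb, -6.18 for Vpreb3 and -5.96 for Rag2, -6.08 for Plac8, -5.68 for Fcrla, -5.67 for Spib, -5.55 for Pou2af1 and -5.16 for Fcho1, and -4.83 for Il7r, -4.80 for Cd79a, -4.79 for Ptprcap and -3.87 for Pax5. The KO effect of these lymphoid and precursor genes was positive in each case. Stromal, matrix, neural and other genes had differences of -4.89 for St8sia2, -4.21 for Chl1, -3.69 for Dpp4, -2.75 for Cxcl12 and -2.11 for Limch1, -1.54 for Asic3, -1.49 for Igf1, -1.26 for Ebf3, -1.19 for Cacna2d3 and -1.03 for Mdk, and -0.94 for Ccnd3, -0.70 for Ptn and -0.53 for Fstl1. With the replicate number as a block, that of Cacna2d3 was not called (adjusted p = 0.0538).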

How the results depend on the processing

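There were 20 alternatives, and the fit that left out muscle, blood and Rn45s genes did not test the genes it left out. The direction of the 90 called genes named here was kept in every alternative that tested them. Of the 90, 42 kept their call in all alternatives that tested them. Of all 225 called genes 70 were called in every alternative, 41 higher and 29 lower. Genes of the blood lists, Prss34 and Mcpt8 among them, could not be among these 70, since they were left out of that fit. The 225 calls became 656 in DESeq2 (246 higher and 410 lower), 141 in limma-voom (77 and 64), 448 at an adjusted p under 0.1 (191 and 257) and 128 with at least a 2-fold change (50 and 78). The 5 WT samples alone gave 172 calls, 122 of them among the 225. Leaving out 1 library at a time gave 113 to 285 calls, 56 to 113 higher and 57 to 186 lower. The lowest counts came without WT estradiol 1, 131 remained without WT estradiol 2, and higher calls outnumbered lower ones without WT estradiol 3 (105 and 85) and in limma-voom. The 167 interactions became 561 in DESeq2, 69 in limma-voom and 395 at an adjusted p under 0.1, and 68 to 270 without 1 library, with 71 without WT placebo 2, 85 without WT estradiol 2 and 100 without KO placebo 1. The cause of these shifts was not tested.

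In the main fit replicate numbers were not taken to pair WT or KO samples. A fit with the replicate number as a block called 257 genes in WT, 189 of them among the 225, and 301 interactions. Of the 55 named genes whose interaction was called, 54 kept it under the block and 3 others, Acp5 among them, gained it.

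Some uncalled genes changed sign when 1 library was left out. The log2 values ranged from -0.93 to 0.0855 for Esr1, -0.53 to 0.17 for Runx2, -0.36 to 0.0509 for Tnfrsf11b and -0.0654 to 0.15 for Sp7. They ranged from -0.19 to 0.41 for Acan, -0.29 to 0.61 for Col2a1 and -0.11 to 0.27 for Ihh. For Tnfsf11, Col10a1 and Prg4 the ranges were -0.0482 to 0.47, -0.0514 to 0.42 and -0.11 to 1.44. With 2 placebo libraries, changes of small size or in genes near the 3-count floor were not resolved at this depth.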

Other observations

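Further regulators changed in WT that belong to none of the groups above, and were chosen after their values were seen. Shox2, a homeobox transcription factor, rose from 26.3 and 20.7 CPM in placebo to 45.4, 45.9 and 48.6 in estradiol (log2 0.99, SE 0.16). Mef2a, a transcription factor of muscle and bone cells, rose from 78.0 and 46.9 CPM to 139, 146 and 102 (log2 1.04, SE 0.20). Tiparp, an ADP-ribosyltransferase induced by the aryl hydrocarbon receptor, rose from 28.2 and 23.1 CPM to 52.6, 53.9 and 48.1 (log2 1.00, SE 0.10, adjusted p = 0.000343 in edgeR with Benjamini-Hochberg adjustment). Fam78b, whose role is little known, rose from 40.8 and 34.1 CPM to 123, 133 and 107 (log2 1.69, SE 0.12), with every estradiol library more than 2-fold above both placebo libraries. Mef2a lost its call in 4 of 20 alternatives, and the others in none.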
